A study of Homo sapiens with 6 samples.

Results

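The ubiquitin-specific proteases (USPs) are the largest family of human deubiquitinases, and their messenger RNAs were followed here in K562 cells, a Bcr-Abl-positive human leukaemia line with erythroid features. Members were the genes whose symbol is USP followed by a number with at most 1 letter, with USP9Y, the USP17L genes and pseudogenes left out. Of 50 such genes in the RefSeq gene table, 49 were matched to 216 rows of the expression table, out of 19053 genes matched in all, and USP11 was not analysed here. Each row of the table is 1 RefSeq protein accession, and each gene was represented by the row chosen by its reads summed over all 6 libraries. The family, and USP22 within it, were proposed with earlier results of these data known.

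RNA came from stable lines carrying a lentiviral short hairpin RNA in a pSIH-H1-GFP vector. The hairpin was directed at lncRNA-IUR-5, an imatinib-upregulated long noncoding RNA (sh-IUR-5, given as sh-lncRNA-IIRX in the labels), or at luciferase (sh-luc, the control), with 3 libraries for each. The labels and methods speak of independent groups of cells, but whether each had its own infection is not given, 1 hairpin stands for the knockdown, and a level of lncRNA-IUR-5 itself was not analysed here because the rows are proteins. The comparison asks which genes differ in level once lncRNA-IUR-5 is depleted.

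A USP cuts ubiquitin from a protein, or trims a ubiquitin chain, with a papain-like cysteine protease fold. Ubiquitin marks proteins for the proteasome, for sorting at endosomes or for signalling, and a single ubiquitin on histone H2A or H2B marks chromatin, so that different family members act on protein stability, membrane traffic, DNA repair and transcription. Many USPs work only with a partner: USP22 is active within the SAGA coactivator complex, and USP1, USP12 and USP46 are activated by the WD-repeat protein WDR48.

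The stretch that the hairpin addresses is shown because it defines the knockdown. It has 1 exact match in hg38, at chr11:95232933-95232953 on the plus strand, in an exon that GENCODE 44 assigns to LNCRNA-IUR.
sh-IUR-5 target: gctagtatcaggtttaaatag

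The libraries held 21023739 to 23320543 counted reads in sh-luc and 24325122 to 31481109 in sh-IUR-5. Levels are in RPKM, reads scaled to the length of the row and to the counted reads of the library, and means are given ± SD over 3 libraries. Differences are log2 fold changes of sh-IUR-5 against sh-luc from edgeR after TMM scaling, a scaling for library composition, with standard errors (SE). TMM factors were 0.925 to 0.938 in sh-luc and 1.05 to 1.11 in sh-IUR-5. A rise read from RPKM is therefore larger than the fitted one, and a fall is smaller. Scaling to total reads instead moved the median of all accessions to 0.21. All 11 K562 markers of the erythroid and megakaryocytic lineages were above the minimum. In sh-IUR-5, 2 (TAL1 among them) were higher and 7 lower, beside 22.4% and 23.5% of all genes. The share that was lower depended on row length, with 40.7% among rows of 735 bases or less and 12.1% among rows of 1899 bases or more. The summed level of the 11 was 20300 to 22600 RPKM in sh-luc and 16100 to 16800 in sh-IUR-5. Most of it came from 2 of the 7, with sh-luc means of 8070 and 11600 RPKM. GATA1, LYL1 and NFE2, 3 of the 7, did not pass with total-read scaling. Of 9 markers of other blood cells 1 passed the minimum, LYZ at 85.5 ± 6.74 and 92.6 ± 2.33 RPKM (n = 3 each), while MPO and PAX5 had no reads. The part of depth and of these markers in the USP differences was not tested.

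Of the 49 USP genes, 30 had a mean of at least 1 RPKM over the 6 libraries and entered the test, and 19 did not. In the tested members, 15 were higher in sh-IUR-5 (edgeR adjusted p under 0.05 over all 38204 accessions), 1 was lower and 14 did not pass. The 15 include USP22, which was singled out with its values known. Over all 8873 genes at their most-read row, 22.4% were higher and 23.5% lower, and over all accessions 37.3% passed in either direction. The median log2 fold change of the 30 was 0.31, against -0.01 over all genes. It was 0.33 without USP4, and 24 of the 30 values were above 0. These 24 include USP42, which passed the minimum through its sh-IUR-5 libraries (mean 1.26 RPKM, against 0.898 in sh-luc). None of the changes reached 2-fold in this fit, whereas USP22 and USP12 passed it with total-read scaling (1.12 and 1.11) and in limma on log2(RPKM + 0.1) (1.09 and 1.06). With counts scaled to total reads the median was 0.52, 29 were above 0, and 21 were higher and 1 lower, against 39.3% and 12% of all genes. USP5, USP16, USP18 and USP48, none of which passed the test, then turned from below to above 0.

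On the TMM scale the 3 sh-IUR-5 libraries lay wholly above the 3 sh-luc libraries in 16 members and wholly below in 1, against 26.9% and 27.5% of all genes, and the groups overlapped in 13 members. The 16 include USP42, whose sh-luc mean (0.898 RPKM) was below the minimum. The library descriptions number the 3 libraries of a group 1, 2.1 and 2.2, and within the first of these series (1 library a group) the median difference of the members was 0.40. In the second series (2 libraries a group) it was 0.32, and 24 members lay above 0 in each.

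**Figure D1:**
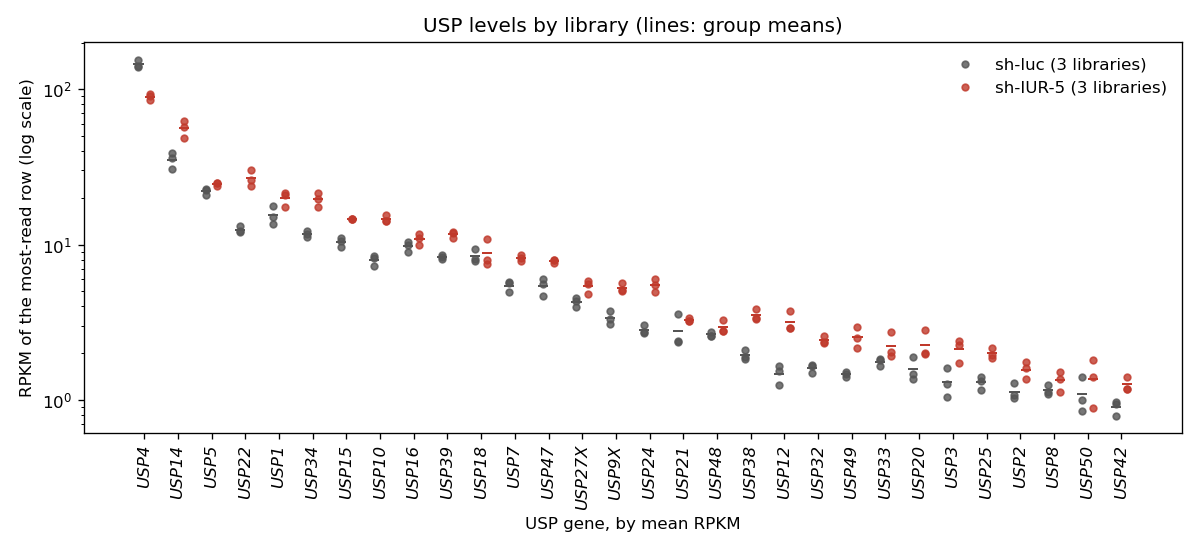
RPKM of the most-read row (log axis) of the 30 tested USP genes, ordered by mean level, with 1 point for each library and a line at each group's mean. USP4 stands above the other members in both groups and is lower in sh-IUR-5, whereas USP22 moves from 12.4 to 26.6 RPKM.

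In sh-luc the order began with USP4 (145 RPKM), USP14 (35.2), USP5 (22), USP1 (15.5) and USP22 (12.4), and the ranges of the first 5 did not overlap. USP34 (11.7) followed and overlapped with USP22. In sh-IUR-5 the order was USP4 (89.5), USP14 (56.1), USP22 (26.6), USP5 (24.6) and USP1 (20), in which USP22 and USP5 overlapped and so did USP1 and USP34 (19.6).

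USP22 removes ubiquitin from histones H2B and H2A within SAGA. Its row (NP_056091.1, 1578 bases) belongs to a gene at chr17:20999596-21043760, on the minus strand of hg38. It held 441, 411 and 434 reads in sh-luc and 1494, 914 and 1017 in sh-IUR-5, or 12, 12.2 and 13.1 RPKM against 30.1, 23.8 and 26.0 RPKM. The lowest sh-IUR-5 library was thus above the highest sh-luc library. The group means were 12.4 ± 0.58 and 26.6 ± 3.17 RPKM (SD, n = 3 each), and the log2 difference of 0.91 (SE 0.0914) is given as a description because USP22 was singled out with its values known. USP22 is 1 of the 15 genes counted as higher.

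Within the family USP22 (0.91) and USP12 (0.90) had the largest differences of the 30 and could not be told apart. USP12 was above USP22 with the length trend removed (0.89 against 0.83) and without sh-luc replicate 1 (0.94 against 0.88), sh-luc replicate 2 (0.99 against 0.90) or sh-IUR-5 replicate 1 (1.0 against 0.83). Over all genes USP22 ranked 203rd of the 8873 genes, above 97.7% of them. Its own difference was 1.09 in the first series of libraries and 0.81 in the second, where 1 other member lay above it. Its second row (XP_005256632.1, 1263 bases) differed by 0.79. Ranked by level among the members, it stood at 5, 6 and 5 with sh-luc and at 3, 4 and 3 with sh-IUR-5. With the RPKM of all rows of a gene summed, the ranks were 9, 11 and 9 against 4, 7 and 6. Leaving out USP4, it made up 6.66%, 6.12% and 6.72% of the family's summed RPKM in sh-luc and 10.7%, 8.66% and 9.1% in sh-IUR-5. Over all rows these shares were 4.36%, 4.16% and 4.44% against 7.04%, 5.92% and 5.81%.

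The closest relatives of USP22, USP27X and USP51, bind the same adaptor proteins outside SAGA. USP27X had 4.53, 3.99 and 4.30 RPKM in sh-luc and 5.86, 5.59 and 4.82 RPKM in sh-IUR-5. Its libraries overlapped after TMM scaling, and its log2 fold change of 0.15 (SE 0.12) did not pass (edgeR adjusted p = 0.342). USP51 was below the minimum level, with 17, 21 and 18 reads in sh-luc and 49, 36 and 38 in sh-IUR-5. Its value in a fit without a minimum was 0.58 (edgeR adjusted p = 0.081). Whether USP22 differed from these relatives was not tested.

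Of the 8 histone and chromatin USPs 6 were tested, 2 were higher and none was lower, with a median of 0.32. The first of the 2 is USP22, which was singled out with its values known. For this and the following small groups, 22.4% of all genes were higher. That share rose with row length, to 36.0% among rows of 1899 bases or more, where 19 of the 30 tested USP rows lie. The second of the 2 was USP49, an H2B deubiquitinase, at 1.47 ± 0.0543 RPKM in sh-luc and 2.53 ± 0.394 in sh-IUR-5 (SD, n = 3 each), a log2 fold change of 0.60 (edgeR adjusted p = 0.00324). At their most-read rows USP3, USP16 and USP21, which also act on H2A, did not pass. USP3 was at 0.50 (SE 0.194, edgeR adjusted p = 0.0509), USP16 at -0.04 and USP21 at 0.03. USP44 had 2 to 6 reads in each library. The exons of USP49 and USP3 overlap those of another annotated gene, on the same strand for USP49 and on the opposite strand for USP3.

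The genes listed around SAGA and USP22 moved in both directions. Of 18 listed, 17 were matched and 14 tested, 5 were higher and 2 lower, beside 22.4% and 23.5% of all genes, and the median was 0.13. The scaffold TRRAP went from 3.11 ± 0.141 to 6.10 ± 0.677 RPKM (log2 fold change 0.78, edgeR adjusted p = 1.61e-06) and the acetyltransferase KAT2B from 2.25 ± 0.184 to 4.40 ± 0.841 RPKM (0.78, edgeR adjusted p = 0.000139). TAF5L (0.71), ATXN7L3B (0.63) and TADA1 (0.43) were the other 3 that were higher. TAF5L passed the minimum through its sh-IUR-5 libraries (mean 1.86 RPKM, against 0.999 in sh-luc). ATXN7L3B is a separate gene from ATXN7L3, which was listed but not matched. ENY2, an adaptor in the module that holds USP22, was lower, at 317, 357 and 364 RPKM in sh-luc and 274, 332 and 308 RPKM in sh-IUR-5 (-0.38, edgeR adjusted p = 0.0028). The RPKM values of ENY2 overlapped between the groups. SGF29, a reader of methylated histone H3, was lower as well (-0.44). With total-read scaling neither passed (edgeR adjusted p = 0.091 for ENY2 and 0.111 for SGF29). ATXN7, which anchors the module, had 0.77 RPKM in sh-luc and 0.827 in sh-IUR-5 and was not tested.

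**Figure D2:**
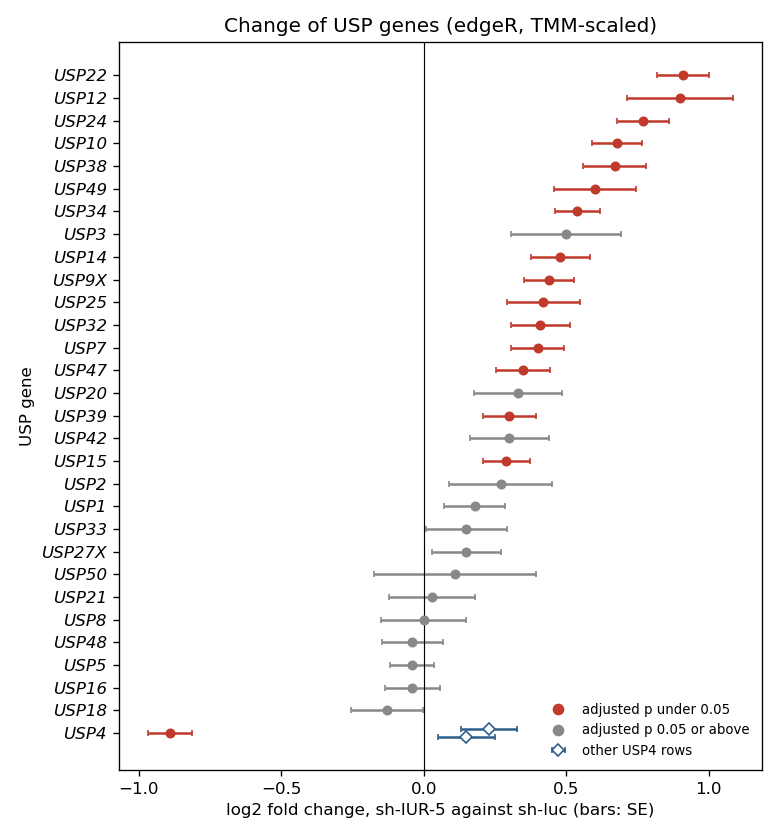
Log2 fold change of sh-IUR-5 against sh-luc for the 30 tested USP genes, with bars for the SE, in order of change. Red points had an adjusted p under 0.05, with USP22 (0.91) at the top, USP4 (-0.89) at the bottom, and the other 2 rows of USP4 (open diamonds) on the other side of 0. USP22 was singled out with its values known, so its point is a description.

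USP1, USP12 and USP46 share the activator WDR48. USP12 had 1.54, 1.64 and 1.24 RPKM in sh-luc and 2.88, 2.92 and 3.74 RPKM in sh-IUR-5. These groups did not overlap, and the log2 fold change was 0.90 (SE 0.185, edgeR adjusted p = 0.000915). USP1, which acts on FANCD2 and PCNA in DNA repair, was at 15.5 ± 2.05 and 20 ± 2.23 RPKM, with overlapping groups after scaling (0.18, edgeR adjusted p = 0.204). USP46, the closest relative of USP12, was below the minimum at its most-read row, with 6, 9 and 23 reads in sh-luc and 44, 23 and 38 in sh-IUR-5. With the reads of all its rows summed it was higher by 1.03 (edgeR adjusted p = 0.00179). WDR48 itself was also higher, from 2.39 ± 0.21 to 4.41 ± 0.139 RPKM (0.69, edgeR adjusted p = 0.000182).

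Of the 6 matched genes for genome maintenance and the MDM2 pathway, 5 were tested and 3 were higher. USP10, which binds G3BP1, had 7.30, 8.16 and 8.39 RPKM in sh-luc and 15.5, 14.1 and 14.1 RPKM in sh-IUR-5. All 3 sh-IUR-5 libraries were above all 3 controls (0.68, SE 0.0879, edgeR adjusted p = 1.09e-05). USP7, which acts on MDM2, was at 5.45 ± 0.423 and 8.20 ± 0.352 RPKM (0.40, edgeR adjusted p = 0.00277). USP47, a protease of DNA polymerase beta, was at 5.41 ± 0.684 and 7.86 ± 0.198 RPKM (0.35, edgeR adjusted p = 0.0078). USP48 (-0.04) and USP1 did not pass at their most-read rows. A row of USP48 with 1458 bases was higher by 0.60 (edgeR adjusted p = 0.00903), while its other tested rows did not pass. USP28, a relative of USP25 linked to the DNA damage response, was below the minimum with 16, 17 and 19 reads against 58, 43 and 50, and the fit without a minimum gave 0.99 (edgeR adjusted p = 0.000592).

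Partner and substrate genes of these proteases were 9 tested of 12 listed, with 4 higher and 1 lower, beside the same 22.4% and 23.5% of all genes, and a median of 0.15. Besides WDR48, MDM2 (0.53), G3BP1 (0.30) and FANCD2 (0.22) were higher. FANCD2 had an edgeR adjusted p of 0.0395, and 0.0511 with DESeq2 size factors in the fit. Of the ubiquitin genes, RPS27A (-0.72) and UBB (-0.25) were lower, and UBA1, which encodes the ubiquitin-activating enzyme, was at 0.01. With total-read scaling UBB was at -0.04 and did not pass (edgeR adjusted p = 0.61).

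At the proteasome, USP14 trims chains of bound substrates. Its row had 30.8, 38.8 and 36.0 RPKM in sh-luc and 48.6, 57.2 and 62.4 RPKM in sh-IUR-5, without overlap (0.48, SE 0.103, edgeR adjusted p = 0.00136). USP5, which takes apart free ubiquitin chains, had 20.9, 22.7 and 22.5 RPKM against 24.8, 25 and 23.9 RPKM. After TMM scaling its groups overlapped, and its log2 fold change was -0.04 (SE 0.0766, edgeR adjusted p = 0.738).

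Of 7 members that act at membranes and organelles 5 were tested and 2 were higher. USP9X, a large protease with many substrates, was at 3.37 ± 0.32 and 5.24 ± 0.334 RPKM (0.44, edgeR adjusted p = 0.00077). USP32, of the endosomal system, was at 1.60 ± 0.104 and 2.43 ± 0.14 RPKM (0.41, edgeR adjusted p = 0.00471). At their most-read rows, USP20 (0.33), USP33 (0.15) and the endosomal sorting protease USP8 (0.00) did not pass. The other tested rows of USP33 were higher, by 0.51, 0.45 and 0.56 (edgeR adjusted p = 0.00516, 0.0135 and 0.0153). The last of these had a sh-luc mean below the minimum (0.954 RPKM).

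The other members that were higher have diverse or less well known substrates. USP24 and USP34 are giant proteases. USP24 had 2.70, 3.04 and 2.74 RPKM in sh-luc and 6.04, 4.97 and 5.49 RPKM in sh-IUR-5 (0.77, SE 0.0897, edgeR adjusted p = 4.01e-06). USP34, which acts on axin in Wnt signalling, had 11.2, 12.3 and 11.7 RPKM and 21.5, 17.5 and 19.7 RPKM (0.54, SE 0.0776, edgeR adjusted p = 3.13e-05). The groups did not overlap in either gene. USP38 went from 1.94 ± 0.132 to 3.51 ± 0.31 RPKM (0.67, edgeR adjusted p = 0.000133) and USP25, the paralog of USP28, from 1.30 ± 0.129 to 1.99 ± 0.158 RPKM (0.42, edgeR adjusted p = 0.0158). These were the remaining 2 of the 4 that were higher among 6 tested, and USP2 (0.27) and USP42 (0.30) did not pass. USP39, a splicing factor without protease activity, went from 8.30 ± 0.271 to 11.7 ± 0.479 RPKM and was higher by 0.30 (edgeR adjusted p = 0.0166), whereas USP50, whose catalytic domain is also taken to be inactive, was at 0.11 (edgeR adjusted p = 0.781). USP18, which removes the ubiquitin-like protein ISG15, was at 8.42 ± 0.787 and 8.80 ± 1.81 RPKM (-0.13, edgeR adjusted p = 0.453). ISG15 itself was lower, from 108 ± 5.36 to 65.9 ± 2.72 RPKM (-0.91, edgeR adjusted p = 2.78e-07).

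Among the weakest calls, USP39 lost its call without sh-luc replicate 1, without sh-IUR-5 replicate 2 and without sh-IUR-5 replicate 3 (adjusted p up to 0.0723 in edgeR). USP15 lost its call without sh-luc replicate 1 (0.0524) and USP25 without sh-luc replicate 3 (0.0854).

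USP4 and USP15 are paralogs, and together with USP11 they share an N-terminal DUSP-UBL arrangement. USP15 was at 10.4 ± 0.772 and 14.6 ± 0.129 RPKM (0.29, edgeR adjusted p = 0.0104). USP4 (chr3:49277144-49340712, minus strand) was the only member that fell. Its most-read row, the short accession of 942 bases, had 154, 139 and 142 RPKM in sh-luc and 85.2, 92.7 and 90.7 RPKM in sh-IUR-5 (-0.89, SE 0.0779, edgeR adjusted p = 2.48e-07). This row took 79.9% of the reads of the 3 USP4 rows.

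The other 2 rows of USP4 went the other way. NP_003354.2 (2892 bases) had 4.31, 3.76 and 4.37 RPKM in sh-luc and 5.84, 4.89 and 5.06 RPKM in sh-IUR-5 (0.15, edgeR adjusted p = 0.253). NP_955475.1 (2751 bases) was at 4.04 ± 0.142 and 5.41 ± 0.50 RPKM (0.23, edgeR adjusted p = 0.072). Neither passed, and the short row had a level far above both. At a full-length row, USP4 would rank among the middle of the family and no member would be called lower.

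The last coding exon of the short USP4 row (244 bases, 25.9% of the row) lies in an intron of the main (MANE Select) transcript and was compared with the coding sequences of other rows. Transcripts of 996 other genes match it over at least 50 bases at 90% identity, and none matches the rest of the row. A stretch like this exon (at least 50 bases at 80% identity) is in the coding part of the most-read row of 88 other genes, on the same strand in 85, among the 7971 genes whose row matched a GENCODE transcript. Of these 88, 86 were lower in sh-IUR-5 and 1 was higher, with a median log2 fold change of -0.84 and a middle spread of -0.90 to -0.73. In the 7882 genes without it, the median was 0.01 and 21.4% were lower. All 29 other tested USP rows are among the genes without it. The comparison was chosen after the values of USP4 were seen and carries no test. The part of this exon in the reads of the USP4 row was not tested. With total-read scaling the median of the 88 was -0.63.

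Other tested rows also resemble other genes. Of the 30 tested rows, 15 had a match of at least 50 bases at 90% identity in a transcript of another gene, with 12 genes for USP32, 6 for USP10 and 3 or fewer for those besides USP4. The longest single match was 2064 bases for USP49, 3193 for USP8, 2724 for USP32, 2166 for USP7, 1180 for USP10, 1065 for USP12 and 917 for USP18, 110 for USP4, and 652 or fewer for the other 7. The matches of USP18 include the near-identical USP41. The values of these 7 members besides USP4 are uncertain to the extent that reads were shared with the other genes, and 5 of them (USP7, USP10, USP12, USP32 and USP49) are among those called higher. How reads that fit several isoforms were assigned is not given in the sources used here. Among 124 pairs of rows of equal length within a gene, none held identical reads. In 15 of the called genes more than 1 row passed the minimum, and in 13 of these all rows had the same sign, the exceptions being USP39 and USP4. In 9 all rows were called in the same direction. Some rows of USP24 (sh-luc means of 0.97 and 0.963 RPKM) and USP25 (0.98, 0.677 and 0.639) passed the minimum through their sh-IUR-5 libraries. No share over all genes is given beside these counts, which are a description.

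Summing the reads of all rows of a gene put 40 USP genes above the minimum, of which 20 were higher and 1, USP4 (-0.69), was lower, with a median of 0.29. Over all genes treated in this way 24.8% were higher and 22.9% lower. The genes called in this count but not at the most-read row were USP3 (0.41), USP33 (0.38), USP40 (0.31), USP42 (0.34), USP46 (1.03) and USP53 (0.86), and USP39 (0.22) lost its call.

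The USP rows are long, and long rows tended to be higher in sh-IUR-5 across the whole table. The median coding length was 2479.5 bases in the 30 tested USP rows and 1212 bases over all genes. When all genes were divided by length into 4 bins of about equal size, the median log2 fold change was -0.21, -0.06, 0.06 and 0.15 from the shortest to the longest. In these bins 10.1%, 17.6%, 26.0% and 36.0% were higher, and 40.7%, 23.8%, 17.3% and 12.1% were lower. Of the partner genes named as lower, ENY2, RPS27A, ISG15 and UBB (306, 471, 498 and 690 bases) are in the shortest bin, and SGF29 (882 bases) is in the second. No tested USP row was in the shortest bin. In the second bin 1 of 4 was higher, in the third 3 of 7, and in the longest 11 of 19, with USP medians of -0.01, 0.30 and 0.35. USP22 and USP14 are in the third bin and USP12 in the second.

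**Figure D3:**
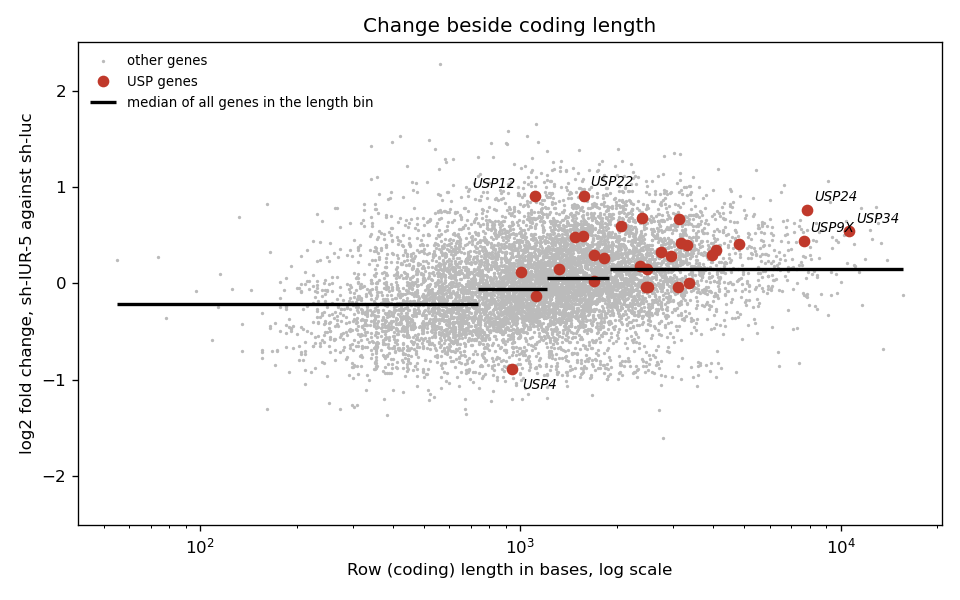
Log2 fold change against coding length of the most-read row (log axis) for 8873 genes, with the 30 tested USP genes in red and a black line at the median of all genes in each length bin. Most USP genes lie in the 2 longer bins, where the medians of all genes are 0.06 and 0.15.

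Within the family the relation to coding length was weak, with a Spearman correlation of 0.23 over 30 genes and 0.15 over 29 without USP4, against 0.32 over all 8873 genes. These are correlations across genes, which share libraries and are not replicates. Against the length of the whole MANE Select transcript it was 0.50 in the 30 USP genes and 0.49 over 8683 genes, and against the length of the 3′ untranslated region 0.50 and 0.47. The USP values are thus close to those of all genes in this respect. Single members depart from it: USP8 has the longest 3′ untranslated region of the tested members, 15333 bases, and a log2 fold change of 0.00, while USP22 has 3435 bases and 0.91. USP34, with 639 bases, was at 0.54. Against mean level, the correlation was -0.04 in the family and -0.36 over all genes.

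After each library's trend of level on row length was removed, 9 of the 30 members were higher, with a median of 0.17, against 19.1% of all genes and a median of -0.03. That fit took out coding length only, and the lengths of the whole transcript and of the 3′ untranslated region were left in. USP7, USP15, USP25, USP32, USP39 and USP47 lost their calls. USP22 was at 0.83 in that fit, and USP10, USP12, USP14, USP24, USP34, USP38, USP49 and USP9X were the other 8.

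The 19 members below the minimum ranged from USP30 (0.908 RPKM, next below USP42 with 1.08) to USP26 and USP29, which had no reads in any library. USP26 and USP29 are known from testis and other reproductive tissues. A count of 0 allows at most 3 reads, which for a row of 1 kilobase is 0.095 to 0.143 RPKM depending on the library and covers counting error only. USP43 had 1 read in all. USP42 passed the minimum through its sh-IUR-5 libraries, since its sh-luc mean was 0.898 RPKM. In the fit without a minimum, 12 of the 17 members with reads were above 0, and 3 (USP28, USP46 and USP53) passed, against 29.9% of all genes in either direction. That fit ended the calls of USP15 (edgeR adjusted p = 0.0632) and USP39 (0.0852).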

How the data were processed

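RNA-seq of 6 K562 libraries was analysed. The authors deposited read counts and RPKM for 109018 RefSeq protein accessions. Per the labels' processing notes, CASAVA 1.8, Trimmomatic 0.32, Bowtie2 2.1.0, SAMtools 0.1.19 and hg38 were used. The deposited RPKM equal reads over row length and summed reads (largest relative deviation 7.7e-14). Row length is a multiple of 3 in 99.8% of rows and is called coding length. A second deposited file holds the authors' own comparison (pooled reads and RPKM, fold changes, p and q values) and was not used. Accessions were matched to RefSeq symbols without version number (64.7% of rows).

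Counts with a mean of at least 1 RPKM were tested with edgeR 4.0.16 in R 4.3.3 (quasi-likelihood test, TMM, Benjamini-Hochberg over all accessions, two-sided, threshold 0.05). The biological coefficient of variation was 8.05%. The script was tested on simulated data. BLAST 2.17.0 searched GENCODE 44. Alternatives included DESeq2 1.42.0 and limma 3.58.1 on log2(RPKM + 0.1). Members and gene lists were chosen with earlier results of these data known. Any member could be named, and USP22, its 2 relatives, every called member and the 3 highest were given in full. Of the partner lists, called genes were named. Other partner genes and those discussed for their rows were named after their values were seen. The p-values measure the spread between these libraries. Some genes of the partner and marker lists, and 1 sequence, are not reported here.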

Additional observations from a re-analysis of the deposited data

How the results depend on the processing

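With the main values of 15 higher, 1 lower, a median of 0.31 and USP22 at 0.91, total-read scaling gave a median of 0.52 and USP22 at 1.12, and limma on log2(RPKM + 0.1) 0.49 and 1.09. Without a minimum level the median was 0.27. With a minimum of 5 RPKM, 9 of 13 members were higher, the median was 0.41 and USP22 was at 1.02. In that fit 7356 of 16092 accessions passed in either direction. With 1 accession a gene 3995 of 8873 passed and with summed reads 4965 of 10392, since fewer features entered. Removal of the trend on coding length left 9 higher and a median of 0.17. At its full-length row, an alternative chosen after seeing the data, USP4 was at 0.15 and no member was lower (0 calls). The difference in median between USP genes with long and short rows was 0.08, and 0.18 without a minimum. Leaving out 1 library gave medians of 0.27 to 0.37 and a long against short difference of -0.03 (reversed, without sh-IUR-5 replicate 1) to 0.18. The cause of these moves was not tested. DESeq2 called 15 members (USP25 lost) and 11171 of 38204 accessions.

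The replicate block called 18 of 30 members, the 16 above plus USP3 and USP20, while 16831 of 38204 accessions passed over all rows in place of 14256. With the block the length-corrected fit had a median of 0.18 and 2 lower, USP4 and USP5. The numbers were not taken to pair the libraries: same-numbered correlations of deviations were 0.30, 0.083 and -0.012, and only the pair numbered 1 correlated best with its own number. Pairs of libraries from different label series were at -0.26, -0.07, -0.17 and -0.19, and the unlike-numbered pairs of the second series at 0.22 and 0.099. The main fit has no term for the series. The label series as a term called 19 members and 17924 accessions.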

Other observations

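Outside the USP family, 34 genes of the other deubiquitinase families were listed, of which 20 passed the minimum level, 4 were higher in sh-IUR-5 and none was lower in edgeR's test, beside 22.4% and 23.5% of all genes, with a median log2 fold change of 0.21. YOD1, an OTU-family protease that works with the segregase VCP, had 1.27, 2.28 and 1.45 RPKM in sh-luc and 5.98, 5.10 and 5.36 RPKM in sh-IUR-5 (1.53, edgeR adjusted p = 3.79e-06). Its groups did not overlap. VCPIP1, another VCP partner, was higher by 0.65 (edgeR adjusted p = 0.000203), BRCC3, which cuts lysine-63-linked chains, by 0.70 (0.00275) and OTUD6B by 0.51 (0.00682). The subunit proteases of the proteasome and the signalosome, PSMD14 (223 ± 30.5 and 234 ± 30.5 RPKM, SD, n = 3 each) and COPS5 (130 ± 8.71 and 130 ± 7.36 RPKM), did not pass (-0.13 and -0.19). UCHL1 and STAMBPL1 had no reads.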
